A study of Homo sapiens with 6 samples.

Results

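Aminoacyl-tRNA synthetases, the enzymes that join each amino acid to its tRNA, were followed in A375 human melanoma cells with and without a knockdown of FAH, fumarylacetoacetate hydrolase, the last enzyme of tyrosine breakdown. The members were a list of 38 genes by name and known place of action: 19 cytosolic synthetases, 16 mitochondrial synthetases and 3 proteins that hold the cytosolic multi-synthetase complex together. Of these, 36 were measured by a probe set with 1 gene symbol, among 18372 such genes in all. All 19 cytosolic and all 16 mitochondrial synthetases were among them, and AIMP1 was the measured complex protein. AIMP2 and EEF1E1 were not analysed here. The rule used names and places of action and no measured value, but it was written with earlier results of these data known.

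The 6 cultures of A375 cells, which the methods call biological replicates, were compared 72 h after transfection. The control group held 3 arrays from cells given a negative control siRNA. The siFAH group held 3 arrays from cells given siRNA against FAH. The labels do not say which FAH siRNA was used. With 1 siFAH group, effects of the siRNA on other transcripts and effects of less FAH cannot be told apart. Both groups were the same established line, both were transfected, and a transient siRNA lowers a transcript without removing the gene. Each Affymetrix Human Gene 1.0 ST array gave 1 log2 signal per probe set, so a difference of 1 between groups is a doubling or a halving of signal.

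The cytosolic and mitochondrial enzymes are encoded by separate nuclear genes for most amino acids, and the mitochondrial set charges the tRNAs that the organelle transcribes itself. Several cytosolic synthetases sit in a large multi-synthetase complex with scaffold proteins. The others are called free here, which means only that they lie outside this complex. When charging fails, uncharged tRNA activates the kinase GCN2, which raises translation of the transcription factor ATF4. ATF4 binds C/EBP-ATF response elements, and several cytosolic synthetase genes are known ATF4 targets.

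FAH itself had control signals of 5.48, 5.59 and 5.68 and siFAH signals of 4.92, 4.60 and 4.92. Its groups did not overlap, and it was lower by 0.77 on the log2 scale (log2 fold change -0.77, SE 0.10, adjusted p = 0.00213, limma). Array medians over all probe sets were 4.996, 4.972 and 4.922 in the controls and 5.011, 5.003 and 5.038 in the siFAH arrays. Every siFAH median thus lay above every control median. Correlations over all probe sets were 0.995 to 0.997 within groups and 0.988 to 0.995 between them. Of 10 genes fixed as markers of the line, 9 were measured. SOX10, S100B, AXL and VIM had control means of 8.56, 7.26, 8.31 and 11.48, whereas the pigment genes MLANA and TYR were at 2.90 and 2.95, in the dimmest 10% of genes. PMEL, another pigment gene, was at 3.88, MITF, the lineage factor, at 6.60, and NGFR at 6.91. Of these 9 markers, 1 was called lower, the receptor kinase AXL (log2 fold change -0.55, adjusted p = 0.00425), and 0 higher. SOX10, NGFR and VIM were lower on every siFAH array without passing the test (-0.19, -0.20 and -0.14), and MLANA was higher on every one (0.26, adjusted p = 0.148). With AXL, 4 of the 9 markers were lower on every siFAH array and 1 was higher. Of all genes, 6.38% were called lower and 3.48% higher, and 18.6% were lower and 13.4% higher on every siFAH array. The part of the markers in the results on synthetases was not tested.

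Most cytosolic synthetases fell in siFAH cells. Of the mitochondrial synthetases, 14 of 16 had negative fold changes and none passed the test. Of the 19 cytosolic genes, 12 were called lower at an adjusted p under 0.05 and 0 higher, where 6.38% of all genes were called lower and 3.48% higher. Of the 16 mitochondrial genes, 0 were called in either direction. In decile 7 of signal, where their median lay, 7.95% of all genes were called lower, so 0 of 16 was near the general share. The median log2 fold change was -0.38 for the cytosolic genes (range -0.75 to -0.07), -0.16 for the mitochondrial genes (range -0.36 to 0.12) and 0.0050 for all genes tested. Every siFAH array lay below every control array in 15 of the 19 cytosolic and 9 of the 16 mitochondrial genes, against 18.6% of all genes. With the methods' t-test and the same adjustment, 0 of the 19 cytosolic genes were called, and under 7 other settings 2 or 3 mitochondrial genes were. The difference between the lists' counts was given no test. The arrays measured RNA of whole cultures, so fewer expressing cells and less RNA per cell cannot be told apart. Among the 183 genes with the lowest 1% of fold changes, 7 were cytosolic synthetases and 0 were mitochondrial.

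Array by array, the median deviation of the cytosolic genes from their control means was -0.07, -0.05 and 0.12 in the controls and -0.36, -0.35 and -0.36 in the siFAH arrays. For the mitochondrial genes it was -0.06, -0.06 and 0.12 in the controls and -0.13, -0.13 and -0.19 in the siFAH arrays. The groups did not overlap for either list. Control replicate 3 was the highest control array in 19 of 19 cytosolic and 13 of 16 mitochondrial genes. Without it the medians were -0.34 and -0.10, and 10 cytosolic and 0 mitochondrial genes were called lower.

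**Figure D1:**
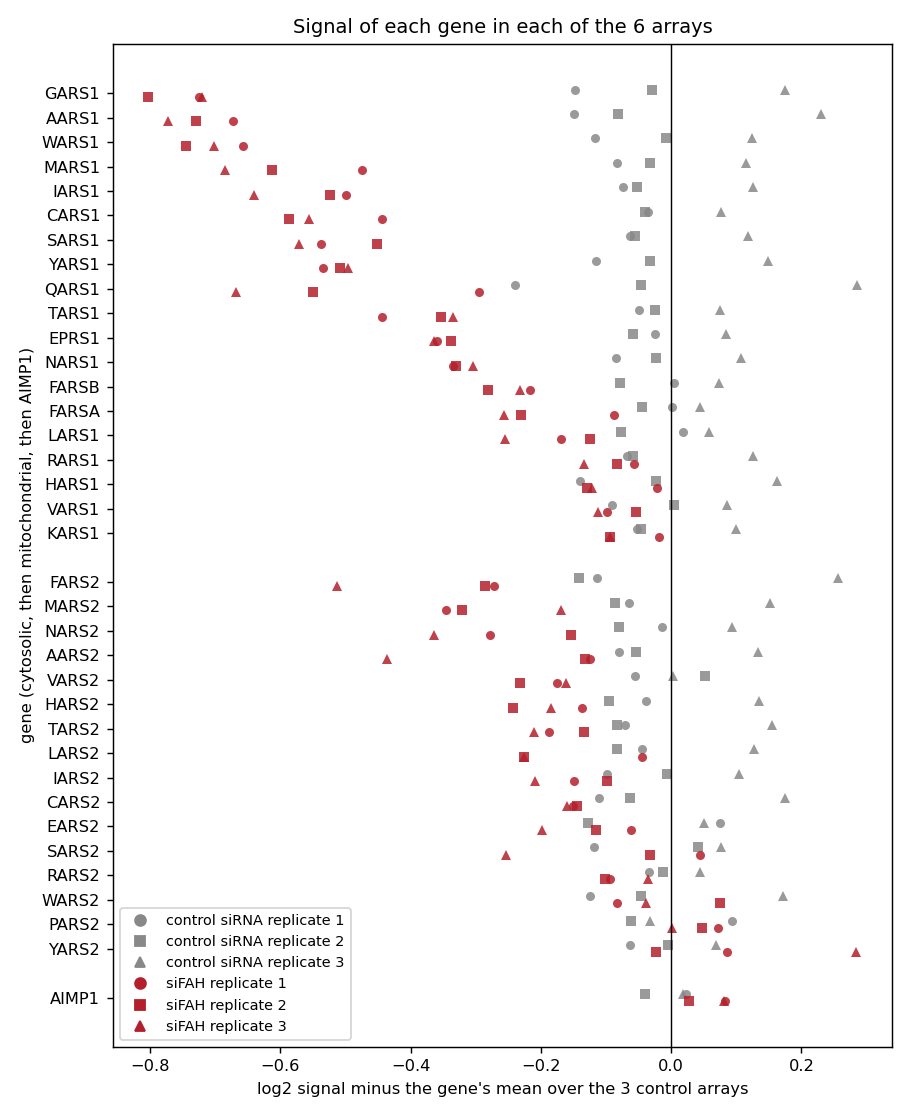
Log2 signal of each member on each of the 6 arrays minus its mean over the 3 control arrays (x axis), with genes in rows (cytosolic, then mitochondrial, then AIMP1), control arrays in grey and siFAH arrays in red. The red points of the 12 called cytosolic genes all lie left of the grey points, and control replicate 3 is the grey point farthest right in 19 of 19 cytosolic genes.

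The free cytosolic enzymes held the changes of greatest size in the list. GARS1, which charges glycine tRNAs and serves both compartments from the same gene, gave 9.996, 10.11 and 10.32 in the controls and 9.42, 9.34 and 9.42 in the siFAH arrays. Its signal fell 1.68-fold (log2 fold change -0.75, SE 0.09, adjusted p = 0.00144, limma). AARS1, the alanyl enzyme, which also removes wrongly attached serine and glycine, gave 8.94, 9.0 and 9.31 against 8.41, 8.35 and 8.31. This was a 1.65-fold fall (log2 fold change -0.72, SE 0.10, adjusted p = 0.00251). WARS1, the tryptophanyl enzyme and a known interferon-induced gene, gave 8.83, 8.94 and 9.07 against 8.29, 8.20 and 8.24. It fell 1.63-fold (log2 fold change -0.70, SE 0.08, adjusted p = 0.00134). In each of these genes the lowest control array stood well above the highest siFAH array.

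CARS1, SARS1 and YARS1 formed a second tier with nearly equal falls. CARS1, the cysteinyl enzyme, gave 8.05, 8.04 and 8.16 in the controls and 7.64, 7.50 and 7.53 in the siFAH arrays (log2 fold change -0.53, SE 0.07, adjusted p = 0.00268). SARS1, the seryl enzyme, which also provides the serine later turned into selenocysteine, gave 7.85, 7.86 and 8.03 against 7.38, 7.46 and 7.34 (log2 fold change -0.52, SE 0.08, adjusted p = 0.00347). YARS1, the tyrosyl enzyme, uses the amino acid whose breakdown FAH completes. Its signals were 9.13, 9.21 and 9.39 in the controls and 8.71, 8.73 and 8.75 in the siFAH arrays (log2 fold change -0.51, SE 0.08, adjusted p = 0.00467). None of these groups overlapped.

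TARS1, the threonyl enzyme, fell less, from 9.62, 9.65 and 9.75 to 9.23, 9.32 and 9.34 (log2 fold change -0.38, SE 0.07, adjusted p = 0.0104). NARS1, the asparaginyl enzyme, gave 9.66, 9.72 and 9.85 against 9.41, 9.41 and 9.44 (log2 fold change -0.32, SE 0.07, adjusted p = 0.0209). Its groups stood apart, but the call did not hold when control replicate 2, control replicate 3, siFAH replicate 2 or siFAH replicate 3 was left out (adjusted p = 0.0649, 0.0617, 0.0711 and 0.0631).

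Within the multi-synthetase complex, 4 of 7 enzymes were called lower. Of all genes 6.38% were called lower, and 18.9% of those in the brightest 10%, where all 7 lay. MARS1, the methionyl enzyme, which also charges the initiator tRNA, gave 9.18, 9.23 and 9.38 in the controls and 8.79, 8.65 and 8.58 in the siFAH arrays (log2 fold change -0.59, SE 0.08, adjusted p = 0.00284). IARS1, the isoleucyl enzyme, gave 9.04, 9.06 and 9.24 against 8.62, 8.59 and 8.48 (log2 fold change -0.55, SE 0.08, adjusted p = 0.00317). EPRS1, which carries the glutamyl and the prolyl enzyme on 1 chain, gave 9.01, 8.97 and 9.12 against 8.67, 8.70 and 8.67 (log2 fold change -0.35, SE 0.07, adjusted p = 0.0118). Control and siFAH arrays of all these genes stood apart.

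QARS1, the glutaminyl enzyme, was the least even of the called members. It gave 9.02, 9.22 and 9.55 in the controls and 8.97, 8.71 and 8.59 in the siFAH arrays, so its highest siFAH array lay just under its lowest control array (log2 fold change -0.50, SE 0.13, adjusted p = 0.0387). The call did not hold without control replicate 2, control replicate 3, siFAH replicate 2 or siFAH replicate 3 (adjusted p = 0.0861, 0.119, 0.107 and 0.137). Of the 12 called members, the other 10 held in all 6 fits that left out 1 array.

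Of the cytosolic genes, 7 were not called, and all 7 had negative fold changes. The subunits of the phenylalanyl enzyme came closest. FARSB, its beta subunit, gave 7.38, 7.30 and 7.45 in the controls and 7.16, 7.10 and 7.15 in the siFAH arrays, with groups apart (log2 fold change -0.24, SE 0.07, adjusted p = 0.0503). FARSA, the catalytic alpha subunit, had a log2 fold change of -0.19 (adjusted p = 0.121), and LARS1, the leucyl enzyme of the complex and a known leucine sensor for mTORC1, one of -0.18 (adjusted p = 0.132).

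RARS1, HARS1, VARS1 and KARS1, the arginyl, histidyl, valyl and lysyl enzymes, lay between -0.09 and -0.07, with adjusted p of 0.464 to 0.58. For KARS1 the 95% interval ran from -0.23 to 0.09, and for RARS1 from -0.26 to 0.07. The intervals of all 4 genes ended above the fold changes of the 12 called members. KARS1, like GARS1, serves both compartments from the same gene and was counted here as cytosolic. VARS1 had 2 probe sets, which carried the same 6 values. KARS1 turned to 0.012 after cyclic loess normalization between arrays.

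Complex membership and enzyme class did not divide the called genes cleanly. The 7 complex-bound enzymes had a median log2 fold change of -0.35 and the 12 free enzymes, of which 8 were called lower, one of -0.45. The difference of these medians was 0.092, with an SD between arrays of the same group of 0.040. Class I enzymes, whose catalytic fold is the Rossmann type, had 6 of 9 called lower and a median of -0.51. Class II enzymes had 5 of 9 called lower and a median of -0.32, with EPRS1, which holds 1 domain of each class, in neither. These are descriptions and were given no test.

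AIMP1, a scaffold protein of the complex and the precursor of the cytokine EMAP II, went the other way in size but did not pass the test. Its signals were 6.53, 6.46 and 6.52 in the controls and 6.59, 6.53 and 6.58 in the siFAH arrays (log2 fold change 0.06, SE 0.06, adjusted p = 0.57). Every siFAH array was above every control array, which held for 13.4% of all genes.

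**Figure D2:**
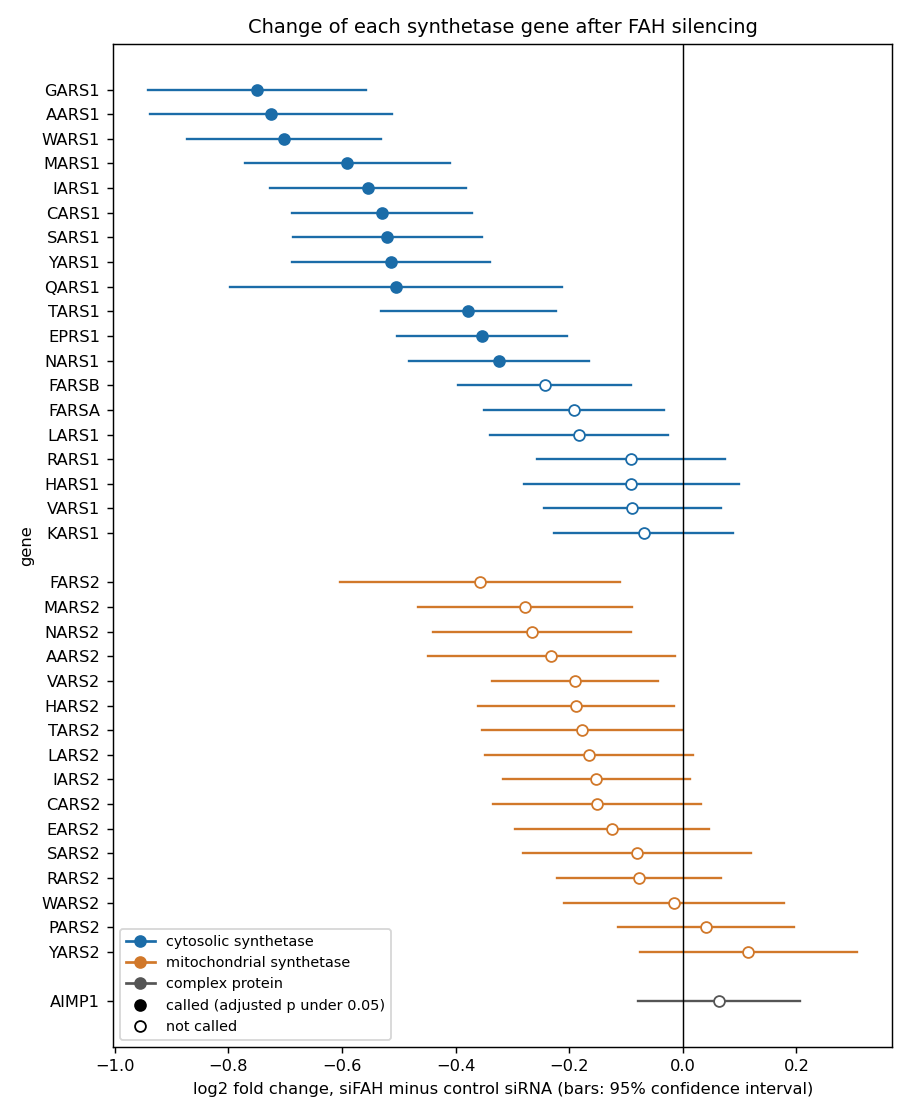
Log2 fold change, siFAH minus control siRNA, of the 36 measured members with 95% intervals from limma, ordered within the cytosolic, mitochondrial and complex protein groups; filled points passed an adjusted p under 0.05. The 12 called members are all cytosolic and lie between -0.75 and -0.32.

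Mitochondrial synthetases had smaller differences at lower signals. FARS2, the phenylalanyl enzyme of the organelle, had the lowest value, with 5.90, 5.87 and 6.27 in the controls and 5.74, 5.73 and 5.50 in the siFAH arrays (log2 fold change -0.36, SE 0.11, adjusted p = 0.0697). NARS2, the asparaginyl enzyme, gave 6.06, 5.99 and 6.16 against 5.79, 5.92 and 5.71 (log2 fold change -0.26, SE 0.08, adjusted p = 0.0599). MARS2, the methionyl enzyme, gave 5.83, 5.80 and 6.04 against 5.55, 5.57 and 5.72 (log2 fold change -0.28, SE 0.09, adjusted p = 0.0649). In all of these the groups stood apart, by the narrowest gap in NARS2, and the adjusted p was above the threshold.

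Among the other mitochondrial genes, AARS2, VARS2, HARS2, TARS2, LARS2, IARS2, CARS2 and EARS2 lay between -0.23 and -0.12, with adjusted p of 0.0988 to 0.34. SARS2 and RARS2 were both at -0.08. EARS2 charges glutamate on both glutamate and glutamine tRNAs of the organelle, the latter then being amidated. VARS2 had a second probe set at -0.17 beside -0.19 for the brighter one.

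WARS2, PARS2 and YARS2 were nearest to 0 or above it. WARS2, the tryptophanyl enzyme, gave 6.32, 6.40 and 6.62 in the controls and 6.36, 6.52 and 6.41 in the siFAH arrays, with overlapping groups and a log2 fold change of -0.02 (95% interval -0.21 to 0.18). PARS2, the prolyl enzyme, had 0.04 (95% interval -0.11 to 0.20). YARS2, the tyrosyl enzyme, gave 5.05, 5.11 and 5.19 against 5.20, 5.09 and 5.40, with a log2 fold change of 0.12 (adjusted p = 0.435). Of the 16 mitochondrial fold changes, 14 were negative. At an unadjusted p under 0.05, 7 mitochondrial genes were lower by limma, 3 by the methods' t-test and 4 by SAM, and 0 were higher by any of them. For the cytosolic genes the same counts were 15, 14 and 15 lower and 0 higher. Over all 18372 genes, 4808 had an unadjusted p under 0.05 by limma, lower and higher together.

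The design allowed the enzymes of the same amino acid to be set against each other within each array, which asks whether the cytosolic gene moved by a different amount than its mitochondrial counterpart. There were 17 such pairs, with EPRS1 and FARS2 each in 2 of them. The cytosolic fold change was the lower in 13 pairs, and in 10 pairs the within-array difference was lower on every siFAH array than on every control array. It was higher on every siFAH array in 0 pairs. The share of other gene pairs with such a difference was not counted. The cytosolic genes were also the brighter ones. Over all genes the median log2 fold change was -0.11 in decile 10 of signal and -0.03 in decile 7, where the mitochondrial median lay. The part of signal level in the pair differences was not tested. The median over the 17 pairs was -0.23. With 3 arrays against 3, the exact permutation test (two-sided) cannot give a p under 0.1, and all 10 pairs without overlap had this p, so none could pass 0.05 before or after adjustment over the pairs.

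Tryptophan and tyrosine showed the widest separation. WARS1 minus WARS2, as a deviation from the control mean of that difference, was 0.01, 0.04 and -0.05 in the controls and -0.57, -0.82 and -0.66 in the siFAH arrays, a difference of -0.69 (SE 0.08). YARS1 minus YARS2 was -0.05, -0.03 and 0.08 against -0.62, -0.49 and -0.78, a difference of -0.63 (SE 0.09). AARS1 minus AARS2 differed by -0.49 (SE 0.09), SARS1 minus SARS2 by -0.44 (SE 0.09) and IARS1 minus IARS2 by -0.40 (SE 0.03).

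The proline pair (EPRS1 and PARS2) differed by -0.39, the cysteine pair by -0.38, the methionine pair by -0.31, the glutamate pair (EPRS1 and EARS2) by -0.23 and the threonine pair by -0.20, all without overlap. For asparagine, leucine and arginine the differences were -0.06 (SE 0.08), -0.02 (SE 0.08) and -0.01 (SE 0.06), with overlapping arrays and exact p of 0.7, 0.9 and 1. The sign of these last pairs turned under other settings. Histidine and valine were at 0.10 each, and phenylalanine, whose mitochondrial gene had the lower fold change, was at 0.17 (SE 0.12) for FARSA and 0.11 (SE 0.13) for FARSB. Without control replicate 3 the phenylalanine values were 0.059 and 0.023, without siFAH replicate 3 FARSB was at 0.031, and without control replicate 1 histidine was at 0.047. Valine was at 0.063 without siFAH replicate 2, and at 0.19 and 0.21 after quantile and cyclic loess normalization.

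**Figure D3:**
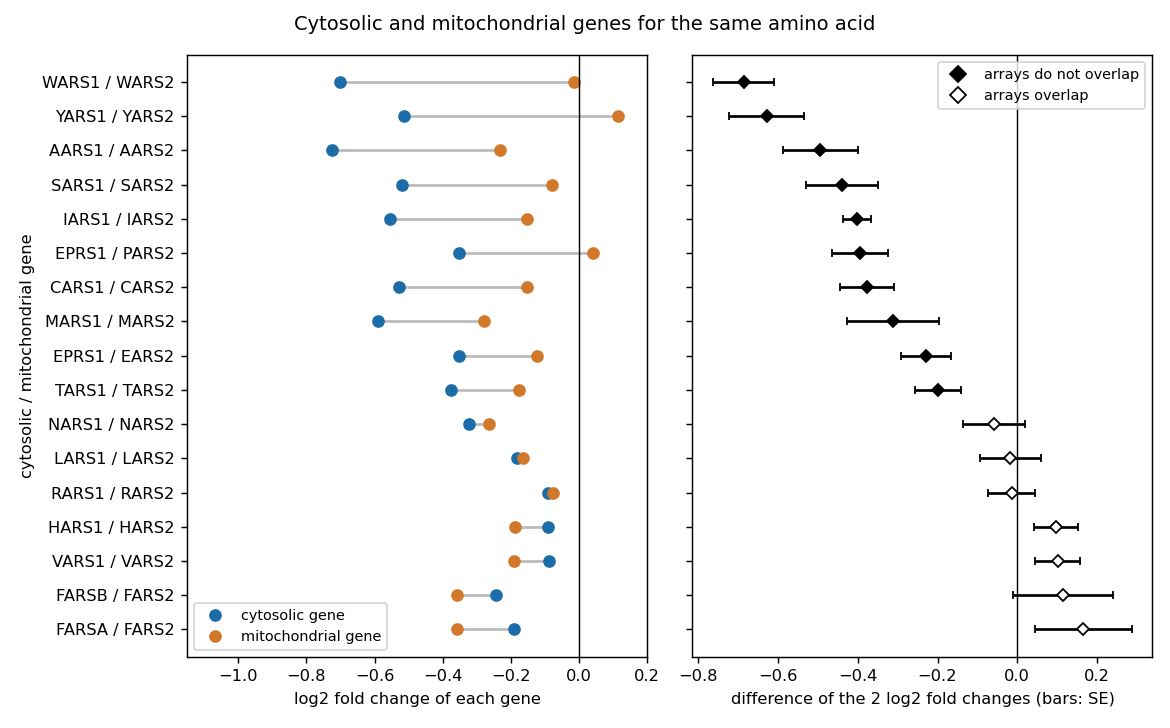
Left, log2 fold change of the cytosolic and the mitochondrial gene of each of the 17 pairs, joined by a line; right, their difference with its SE, filled where the arrays of the groups do not overlap. The tryptophan and tyrosine pairs lie farthest left, at -0.69 and -0.63, and the phenylalanine pairs lie on the right of 0.

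Signal level differed between both sets and moved with fold change over all genes, so it is given beside the result. Of the cytosolic genes, 16 lay in the brightest 10% of genes and 3 in the next 10%, whereas the mitochondrial genes had a median decile of 7 (range 5 to 10). Split into 10 equal bins of signal, all genes had a median fold change (log2) of 0.05 in the dimmest bin and -0.11 in the brightest, with 0.326% and 18.9% called lower. Measured against the median of their own decile, the cytosolic genes had a median of -0.27, with 15 of 19 below it, and the mitochondrial genes -0.08, with 12 of 16 below it. The difference between the medians of both lists was -0.22 as measured and -0.19 against the deciles. The part of signal level in the count of calls was not tested. Standard errors were 0.068 to 0.132 for cytosolic and 0.065 to 0.111 for mitochondrial genes.

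**Figure D4:**
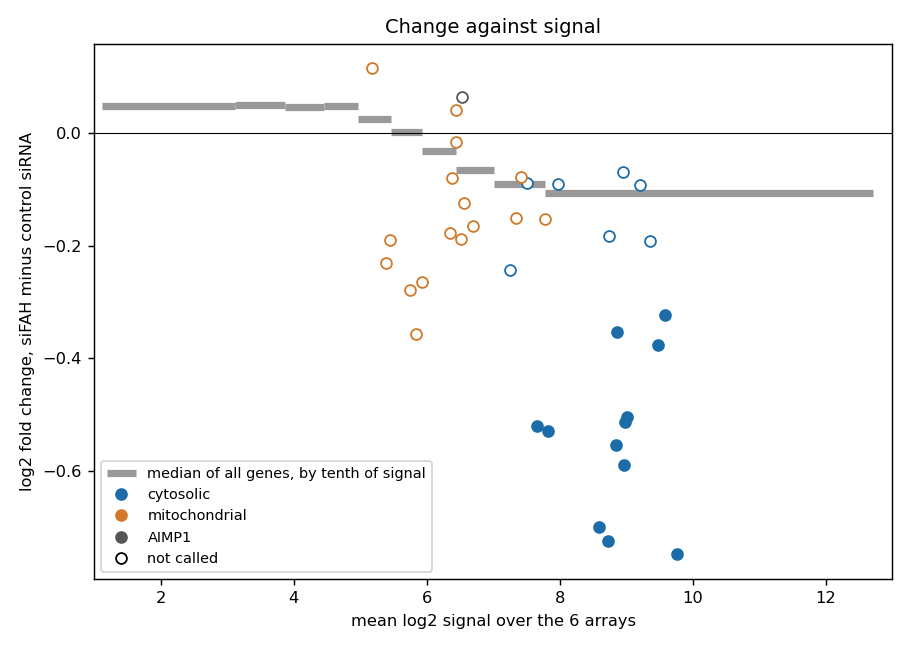
Log2 fold change (y axis) against mean log2 signal over the 6 arrays (x axis) for the members, with the median fold change of all genes in each decile of signal drawn as bars across the width of that decile. The decile medians go from 0.05 to -0.11, and 15 of 19 cytosolic genes lie below the median of their decile.

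The promoters of the members were searched for TGATGNAA, the letters of a C/EBP-ATF response element, on both strands of the RefSeq windows of GRCh38.p14 (250 bases before to 50 after each start). Of the 36 measured members, 31 had a window. The letters were in 7 of 16 cytosolic genes (43.75%), in 1 of 14 mitochondrial genes (7.14%) and in 3.60% of all tested genes with a window. All 7 cytosolic genes were among the 11 called lower that had a window, and 0 of the 5 cytosolic genes not called held the letters. Of all genes called lower, 5.99% held them. A match is a description of letters and not a site of binding.

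The 8 letters are shown in capitals within 28 bases, on the strand that reads TGATGNAA, to show the base at N and the bases around the match. The other capital letters are alike because the search required them. Matches of the cytosolic genes are followed by YARS2, the mitochondrial match, and by ASNS, a gene of amino acid shortage:
GARS1: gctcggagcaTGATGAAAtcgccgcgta
AARS1: ctaacttggcTGATGCAActgcgagaaa
MARS1: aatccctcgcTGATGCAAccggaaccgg
IARS1: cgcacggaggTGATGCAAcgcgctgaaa
CARS1: tcctagaatcTGATGCAAccgccgcccc
TARS1: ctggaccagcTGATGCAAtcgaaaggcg
NARS1: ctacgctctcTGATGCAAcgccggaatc
YARS2: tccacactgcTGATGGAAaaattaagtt
ASNS: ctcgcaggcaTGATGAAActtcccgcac

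Of the cytosolic matches, 6 read TGATGCAA, and GARS1 and ASNS read TGATGAAA. The match was at chr7:30594845-30594852 for GARS1, chr16:70289686-70289693 for AARS1, chr12:57488064-57488071 for MARS1, chr9:92293703-92293710 for IARS1 and chr11:3057418-3057425 for CARS1. It was at chr5:33440967-33440974 for TARS1, chr18:57621815-57621822 for NARS1, chr12:32756087-32756094 for YARS2 and chr7:97872469-97872476 for ASNS. NARS1, YARS2 and ASNS carried it on the strand of the gene and the others on the opposite strand. Matches in MARS1, IARS1, CARS1, TARS1 and NARS1 lay close to the start. Of these, the match in IARS1 lay wholly before the start, those in MARS1 and CARS1 ran across it, and those in TARS1 and NARS1 lay after it. With only the bases before the start searched, 3 of 16 cytosolic genes (18.75%), 1 mitochondrial gene and 3.13% of all genes held the whole motif.

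The 250 bases before the start are given for those 3 genes, on the strand of the gene and with the match in capitals, to show where it falls. They are chr7:30594628-30594877 (plus strand) for GARS1, chr16:70289507-70289756 (minus strand) for AARS1 and chr9:92293698-92293947 (minus strand) for IARS1:
GARS1 promoter: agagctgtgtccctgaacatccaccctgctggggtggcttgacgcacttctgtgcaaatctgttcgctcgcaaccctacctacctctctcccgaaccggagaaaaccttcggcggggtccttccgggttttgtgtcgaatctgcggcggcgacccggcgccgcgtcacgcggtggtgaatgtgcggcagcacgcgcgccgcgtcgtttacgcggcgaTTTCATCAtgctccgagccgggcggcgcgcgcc
AARS1 promoter: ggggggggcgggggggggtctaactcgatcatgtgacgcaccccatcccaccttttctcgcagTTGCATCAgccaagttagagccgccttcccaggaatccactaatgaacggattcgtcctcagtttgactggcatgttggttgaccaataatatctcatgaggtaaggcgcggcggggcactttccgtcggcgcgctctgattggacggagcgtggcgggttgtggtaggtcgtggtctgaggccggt
IARS1 promoter: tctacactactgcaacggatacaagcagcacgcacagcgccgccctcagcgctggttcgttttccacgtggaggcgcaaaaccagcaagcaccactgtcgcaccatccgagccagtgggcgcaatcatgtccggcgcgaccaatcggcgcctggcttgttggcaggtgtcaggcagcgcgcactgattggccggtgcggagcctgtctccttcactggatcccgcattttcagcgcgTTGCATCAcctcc

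Genes around the synthetases were counted in 3 lists. Of 12 measured genes that act on tRNA before or beside charging, 3 were called lower (25%) and 0 higher, with a median of -0.20, where 6.38% of all genes were lower and 7.95% to 10.6% of genes in the bins of signal at the list's median. XPOT, the exportin that carries tRNA out of the nucleus, had a log2 fold change of -0.52 (adjusted p = 0.00285), and TRNT1, which adds the CCA end to which amino acids are joined, one of -0.45 (adjusted p = 0.0109). SEPSECS, which turns phosphoseryl-tRNA into selenocysteinyl-tRNA, had -0.30 (adjusted p = 0.0302), a call not held when control replicates 2 or 3 or any siFAH replicate was left out (adjusted p = 0.0505 to 0.102). AARSD1 and PTRH2 were not analysed here.

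Of 9 measured elongation and delivery factors, which take charged tRNA to the ribosome, 2 were called lower (22.2%) and 0 higher, with a median of -0.15. This share was near the 18.9% called lower among all genes of the brightest bin, where the list's median signal lay. EEF1D, a subunit of the exchange factor for EEF1A, had -0.56 (adjusted p = 0.00686). TUFM, the mitochondrial elongation factor Tu, had -0.42 (adjusted p = 0.0189), and its call was lost without control replicate 2, control replicate 3, siFAH replicate 2 or siFAH replicate 3 (adjusted p = 0.0683 to 0.0753). GFM2 was not analysed here.

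The third list was a choice of 10 genes linked to the response to uncharged tRNA, and tRNA charging itself was not measured. All 10 were measured on the arrays, and 5 were called lower (50.0%) and 0 higher, with a median of -0.30. Of all genes 6.38% were called lower, and of genes in the list's median bin of signal 10.6%. ASNS, asparagine synthetase, had -0.91 (adjusted p = 0.000517), and CHAC1, which degrades glutathione, had -0.74 (adjusted p = 0.00149). DDIT3, the stress factor CHOP, had -0.57 (adjusted p = 0.00234), and CEBPG, a partner of ATF4, had -0.50 (adjusted p = 0.00508). TRIB3, a pseudokinase that ATF4 induces, was the other called gene, at -0.32 (adjusted p = 0.0291), and its call was lost without control replicates 2 or 3 or any siFAH replicate (adjusted p = 0.0522 to 0.106). The upstream genes EIF2AK4, which encodes GCN2, its activator GCN1, and ATF4 had -0.12, -0.26 and -0.14 and did not pass the test (adjusted p = 0.304, 0.0655 and 0.235). TGATGNAA was in a window of 3 of the 10 genes of this list (30%), against 3.60% of all tested genes with a window. These 3 genes, ASNS, CEBPG and CHAC1, were all called lower, and a link between the letters and the falls was not tested. All these lists were chosen with earlier results of these data known, so their counts are not independent evidence of direction.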

How the data were processed

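Total RNA of 6 A375 cultures was measured on 1 array each. The log2 values are as deposited: the authors made them with RMA (background correction, normalization, 1 summary for each probe set), whose version is not given in the sources used here. For arrays, the number per group, 3, limits the precision. The labels number the replicates, and nothing in them ties a number to a shared day or culture.

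Of 28829 probe sets, 19291 had 1 gene symbol, 1735 several and 7803 none named here. Symbols were updated by gene ID (19260 matched, 0 changed), and the brightest probe set of a symbol was kept, which left 18372 genes. The groups were compared in R 4.3.3 with limma 3.58.1, by lmFit followed by eBayes (4 residual and 6.52 prior degrees of freedom), two-sided, with Benjamini-Hochberg adjustment over all 18372 genes. A call is an adjusted p under 0.05. The fit was tested on simulated data. Within-array differences of gene pairs were compared with an exact permutation test. Promoters were searched and figures drawn in Python 3.11.15 with pandas 2.3.3 and matplotlib 3.10.9. Promoter sequences are from RefSeq, GRCh38.p14.

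Every member was named, with at most 4 called genes of each partner list by size of change. EIF2AK4, GCN1, ATF4 and TRIB3 were named after their values were seen. Members and lists were chosen with earlier results of these data known. Alternatives were quantile, cyclic loess and median centring, array weights, a trended and robust eBayes, a filter on dim probe sets, averaging over a gene's probe sets, a replicate block, leaving out each array, and the methods' limits (at least 1.2-fold and p under 0.05) with a t-test, limma or SAM.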

Additional observations from a re-analysis of the deposited data

How the results depend on the processing

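The 12 cytosolic calls became 0 with the methods' t-test and Benjamini-Hochberg adjustment, under which 8 genes in all were lower and 6 higher. They numbered 10 to 13 under the other alternatives, and 10 to 12 leaving out 1 array. The mitochondrial count of 0 became 3 with arrays centred on their medians, with dim probe sets left out, with eBayes trend and robust, and with limma or SAM at the methods' limits. It became 2 with array weights and 2 with the methods' t-test at those limits. It was 0 leaving out any array. With the replicate block, 10 cytosolic and 0 mitochondrial genes were lower (462 lower and 299 higher over all genes). Deviations of same-numbered arrays correlated at -0.16, -0.09 and -0.27. With 3 arrays per group, these values cannot settle whether the numbers pair samples. Over all genes, leaving out 1 array gave 390 to 1192 lower calls. The share of calls that were lower was 64.7%, 80.1% with centred arrays and 56.2% with cyclic loess. The cytosolic minus mitochondrial median was -0.24 after quantile normalization and -0.27 to -0.19 leaving out 1 array. With only bases before the start, 3 cytosolic promoters held the motif. Signs turned for KARS1 (0.012) and RARS2 (0.0042) with cyclic loess, PARS2 (-0.013) with centred arrays, and WARS2 with quantile (0.015), cyclic loess (0.022) and array weights (0.038). Leaving out 1 array gave -0.0779 to 0.0701 for WARS2 and -0.14 to 0.0059 for SARS2. Among pairs, with alternatives chosen after seeing the data, LARS1 against LARS2 turned to 0.00431 (quantile) and 0.015 (cyclic loess), and NARS1 against NARS2 to 0.00397 (cyclic loess). Leaving out 1 array gave -0.0772 to 0.0362 for LARS1 against LARS2, -0.117 to 0.000802 for NARS1 against NARS2 and -0.0394 to 0.0282 for RARS1 against RARS2. The cause was not tested for any of these. Of 645 member values under alternatives, 588 kept direction and side of the threshold, 24 lost and 24 gained the call, and 9 turned sign. The comparison of protein sequences was not run.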
